A study of Mus musculus with 24 samples.

Results

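Cytosolic ribosomal protein genes were followed as a gene group across an ATAC-seq study of mouse macrophages. The group holds the GENCODE protein-coding genes whose symbols start with Rpl or Rps and a digit, with Rplp0, Rplp1, Rplp2 and Rpsa added and the Rps6k kinases left out, which gave 92 of 21853 protein-coding genes. By name, 46 encode proteins of the large subunit and 31 proteins of the small subunit. A further 7 are paralogs expressed beside or in place of a standard protein, 6 carry pseudogene-like symbols, and Rps19bp1 and Rpl7l1 match the symbol rule but encode proteins that are not ribosomal subunits. The rule reads gene symbols and no measured value, but the members were chosen with earlier results of these data known.

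ATAC-seq uses the Tn5 transposase, which inserts sequencing adapters where DNA is not covered by nucleosomes, so a peak marks an accessible stretch of chromatin. Macrophages were grown for 7 days from bone marrow of male mice at postnatal day 28, and 50000 cells entered each reaction. The animals were BTBR T+ Itpr3tf/J (BTBR), an inbred strain used as a model of autism-like behaviour, or C57BL6/J, the common laboratory strain, and no genetic modification is given for either. Cultures of each strain received media alone, 1 round of bacterial lipopolysaccharide at 100 ng/ml (LPSx1: 24 hours) or 2 such rounds (LPSx2: 4 hours, then washing and some 20 hours without LPS, then 24 hours), and the wash and the 20 hour wait were given to all of them. The 24 libraries came from 8 biological replicates, 4 of each strain, each with all 3 treatments. A biological replicate is taken here as 1 mouse, which the labels do not state in those words. Each of the 4 sequencing lanes held 1 replicate of each strain.

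The deposited files are lists of peaks of a fixed width, 1 list per library, with a position and a score for each peak but no read counts. C57BL6/J replicate 6 gave only 299 peaks in media and 1877 after LPSx2 once overlapping peaks were collapsed, and these 2 lists were left out, which left 22 lists (7 media, 8 LPSx1 and 7 LPSx2; 12 BTBR and 10 C57BL6/J). In 7 other lists, namely all of C57BL6/J replicate 1 and the LPSx2 and media lists of BTBR replicate 3 and C57BL6/J replicate 4, 66.7% to 87.4% of the peaks overlapped another peak, and overlapping peaks were collapsed to the higher-scoring one. Because list lengths differed widely, the lists of a lane were limited to their strongest peaks at a common length of 11350, 22039, 16045 or 13957 peaks in lanes 1 to 4. At least 3 and at most 10 of 10 macrophage marker genes had a promoter peak in each list, while B cell and stromal markers had none in any list and T and NK cell and neutrophil markers had at most 1.

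Ribosomal proteins are made in equal amounts to build the large and small subunits of the cytosolic ribosome. Their genes are transcribed by RNA polymerase II from short, housekeeping-type promoters, and many of their mRNAs begin with a pyrimidine tract (the 5′ TOP) through which mTORC1 signalling controls their translation. Promoters of this group are known to carry sites for ETS factors such as GABPA, for YY1 and for SP factors. In macrophages, LPS signals through TLR4 to NF-kB and AP-1, which act largely at enhancers opened by the lineage factor PU.1.

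To show what was measured, the sequences that carry the results are given first. The promoters below run 5′ to 3′ on the coding strand from 100 bases before the RefSeq start (GRCm38.p6, the mm10 assembly) through the first 20 bases from it. Capitals mark the letters searched for: CCGGAA (ETS), GGGCGG (SP) and GCGCATG (NRF1) on either strand, so that a site on the other strand reads as its complement, and TATAAA 15 to 45 bases before the start on the coding strand. A pyrimidine tract, here a C followed by at least 4 C or T and beginning within 5 bases of the start, was searched on the coding strand and is not capitalised. ATGGCG (YY1) and CACGTG (the E-box) were searched too and do not occur in these stretches. None of the motifs contains another. A match describes the letters and is not evidence of a bound factor. Rpl15, Rps21 and Rpl22l1 are shown because their promoter peaks were among the strongest of the group, Rps3, Rpl41, Rps2 and Rpl10 because theirs fell after LPSx2, Rpl14 because it differed between the strains, and Rpl4 because its promoter was almost never called.
Rpl15, chr14:18270967-18271086, minus strand: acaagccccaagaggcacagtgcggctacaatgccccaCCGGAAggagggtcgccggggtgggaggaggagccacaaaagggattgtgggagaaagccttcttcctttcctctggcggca
Rps21, chr2:180257279-180257398, plus strand: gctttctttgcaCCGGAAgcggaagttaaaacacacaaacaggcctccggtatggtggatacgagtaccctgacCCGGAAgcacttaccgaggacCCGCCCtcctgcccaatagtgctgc
Rpl22l1, chr3:28805408-28805527, plus strand: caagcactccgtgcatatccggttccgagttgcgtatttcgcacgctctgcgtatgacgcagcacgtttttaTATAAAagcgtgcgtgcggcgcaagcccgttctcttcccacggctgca
Rps3, chr7:99483690-99483809, minus strand: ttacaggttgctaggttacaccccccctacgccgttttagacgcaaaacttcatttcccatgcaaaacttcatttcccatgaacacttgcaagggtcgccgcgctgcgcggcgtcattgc
Rpl41, chr10:128549149-128549268, minus strand: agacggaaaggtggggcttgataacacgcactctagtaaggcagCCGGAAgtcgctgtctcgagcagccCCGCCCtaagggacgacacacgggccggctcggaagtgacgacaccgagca
Rps2, chr17:24719963-24720082, plus strand: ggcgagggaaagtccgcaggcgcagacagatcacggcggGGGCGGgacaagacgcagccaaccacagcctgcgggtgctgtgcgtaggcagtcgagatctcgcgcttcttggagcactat
Rpl10, chrX:74270716-74270835, plus strand: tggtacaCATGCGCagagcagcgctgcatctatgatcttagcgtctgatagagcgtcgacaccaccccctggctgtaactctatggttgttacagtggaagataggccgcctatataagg
Rpl14, chr9:120571417-120571536, plus strand: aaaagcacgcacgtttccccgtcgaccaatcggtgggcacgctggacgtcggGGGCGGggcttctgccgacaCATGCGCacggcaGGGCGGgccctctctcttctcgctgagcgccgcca
Rpl4, chr9:64173287-64173406, plus strand: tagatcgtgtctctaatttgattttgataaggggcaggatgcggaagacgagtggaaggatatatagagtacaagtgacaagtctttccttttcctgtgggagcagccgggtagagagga

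Of these 9 promoters, 5 had a pyrimidine tract at the annotated start (Rpl15, Rps21, Rpl22l1, Rps2 and Rpl14). The ETS letters stood 62 bases before the start in Rpl15, 56 bases before it in Rpl41, and 88 and 26 bases before it in Rps21. Rpl22l1, which encodes a paralog of the large-subunit protein Rpl22, had a TATA box 28 bases before its start. Rps3 and Rpl4 held none of the capitalised letters in this stretch and no tract within the 5-base limit, although one promoter peak was frequent and the other nearly absent. Rpl4 does hold a run of C and T, but it begins more than 5 bases before the RefSeq start. The RefSeq starts lay 0 bp (Rps2) to 73 bp (Rpl14) from the nearest GENCODE start of the gene, and 12 bp at Rpl4. The RefSeq table held 66 of the 92 members, or 71.7%, so shares over all members were taken from the peaks themselves.

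In the mm10 sequence under the strongest promoter peak of each gene, available for 80 members and for 10855 protein-coding genes in all, the ETS letters were present at 40 members (50.0%) and at 26.3% of all genes. The YY1 letters were present at 23 members (28.7%) and at 14.0% of all genes. The SP letters were present at 47 members (58.8%), against 63.5% of all genes. The NRF1 letters occurred at 8 members (10.0%), against 6.51% of all genes, and the E-box at 5 members (6.25%), against 8.70% of all genes. Median GC content under these peaks was 60.9% at the members and 65.2% at all genes. The ribosomal protein promoters therefore held the ETS and YY1 letters in a larger share of windows, and the SP letters in a slightly smaller share of somewhat less GC-rich windows. These shares are descriptions without a test.

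Accessibility of each promoter was expressed as a percentile: the rank of the best peak centred within 1 kb of a protein-coding start of the gene, in lists of equal length, where 100 is the strongest peak and 0 means that no such peak was in the list. A percentile of 0 therefore does not mean closed chromatin, only that no peak was among the strongest ones compared. A fall in percentile is also relative to the other peaks of the list. In a pool of 50000 cells, fewer cells with an open promoter and less accessibility in each cell cannot be told apart.

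Ribosomal protein promoters ranged from the strongest few percent of all peaks to none at all. A promoter peak was present in all 22 lists for 15 of 92 members (16.3%), against 11.9% of all protein-coding genes. They included Rpl15, Rps21, Rpl37, Rps29, Rpl22l1, Rpl30, Rpl36al, Rps13, Rpl27a, Rps19, Rpl31, Rpl18 and Rplp0. Another 32 members had a promoter peak in at least 50% of the lists, 33 in a smaller share, and 12 (13.0%) in none, against 50.3% of all genes in none. The median of the mean percentile was 21.6 for large-subunit genes, 28.9 for small-subunit genes and 0 for the paralogs.

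The highest mean percentile belonged to Rpl15, which encodes a large-subunit protein, at 98.4 ± 0.914 (SD, n = 22 lists). Rps21, a small protein of the small subunit, followed at 94.1 ± 6.13. Rpl37 averaged 90.6 ± 6.26, Rps29 89.6 ± 5.99 and Rpl22l1 86.8 ± 11.8. Rpl15 stood out by its narrow spread, while the next 4 overlapped one another within their SDs. The start of Rpl15 lies 69 bp from that of Nkiras1, so its peak covers 2 promoters. In only 8 of the 22 lists was the nearest protein-coding start to this peak that of Rpl15. In all, 17 members had the start of another protein-coding gene within 1 kb, among them Rpl36al with Mgat2 (74 bp), Rpl18 with Sphk2 (69 bp), Rps27 with Rab13 (44 bp) and Rps2 with Rnf151 (53 bp). At these genes the peak cannot be assigned to 1 of the 2 starts.

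At the other end, Rpl4 and Rps4x were the standard ribosomal proteins with no promoter peak in any equal-length list. In the full-length lists, a peak was called at Rps4x in 9 of 22 libraries and at Rpl4 in 1. The other 10 genes in none were the paralogs Rpl10l and Rpl39l, known from testis, Rpl3l, known from striated muscle, and Rps27rt, and the 6 pseudogene-like symbols, and these 10 had no promoter peak in the full-length lists either. Rpl36a-ps1, Rpl9-ps1 and Rpl9-ps6 nevertheless had peaks assigned to them at a distance, averaging 1.09, 0.591 and 0.273 peaks per list. How reads that match several ribosomal protein copies were treated is not given in the sources used here.

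Promoter peaks in 1 to 3 lists were seen at Rpl19, Rpl35a, Rpl12, Rpl36, Rpl8, Rps9 and Rpl39. Peaks in 4 to 6 lists were seen at Rps28, Rpl17, Rpl38, Rpl23, Rpl32, Rps15a, Rpl6, Rpl9, Rpl7l1, Rpl5 and Rpl24. Peaks in 7 to 10 lists were seen at Rpl26, Rps16, Rpl3, Rpl29, Rps10, Rps25, Rpl23a, Rpl10a, Rpl7a, Rps18, Rpl11, Rps7, Rpl13 and Rps19bp1. A gene could be a standard, ubiquitously needed subunit and still lack a peak among the strongest of most lists. Where a peak was called it lay close to the start: the median position of the 1042 promoter peaks of the group was 42 bp upstream, and 73.8% were within 100 bp of a start, against 63.3% of promoter peaks of all genes.

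**Figure D1:**
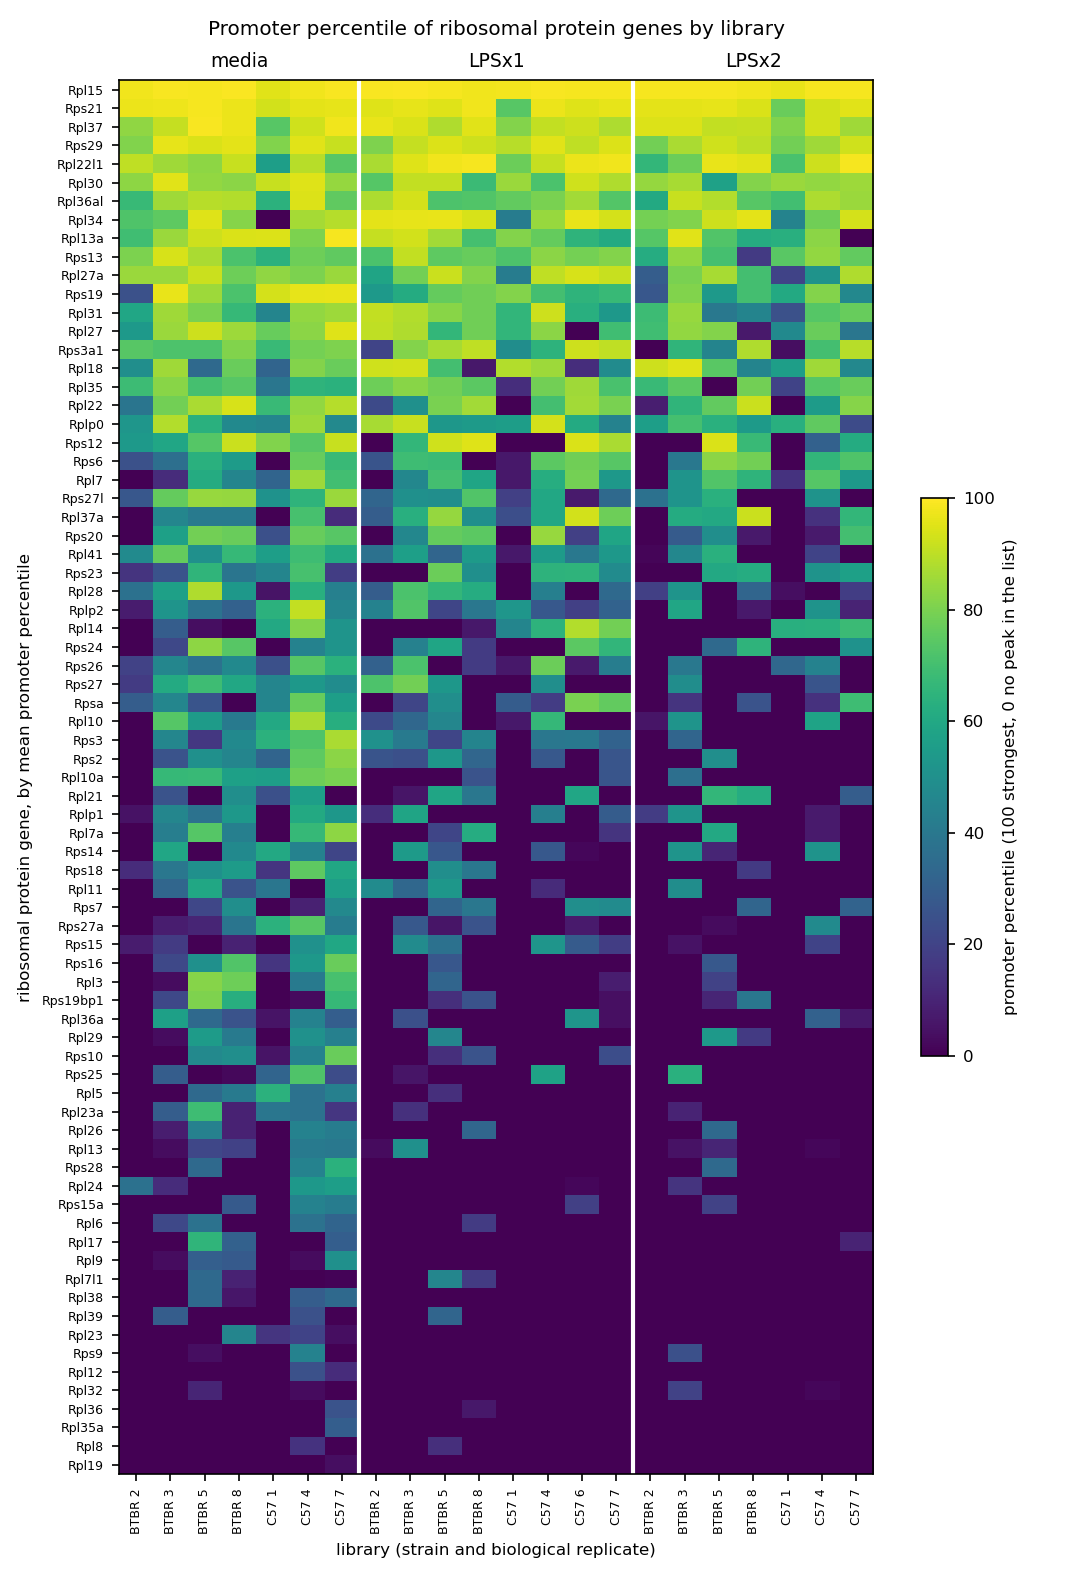
Promoter percentile of 75 ribosomal protein genes (down the page) in each of the 22 libraries (across, grouped by treatment and strain), where yellow is the strongest peak of an equal-length list (100) and dark purple is no promoter peak (0); the 12 genes with no peak in any list are not drawn. Rpl15 is yellow in every column, and many genes in the middle and lower rows have values in media columns and are at 0 in most LPSx2 columns.

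The first comparison asked whether LPS changed accessibility at these promoters. Fewer ribosomal protein promoters were among the strongest peaks after LPS. The number of members with a promoter peak per list was 61.6 ± 14.0 in media (SD, n = 7), 44.4 ± 8.19 after LPSx1 (n = 8) and 36.6 ± 9.20 after LPSx2 (n = 7). As a share of the 92 members these were 66.9%, 48.2% and 39.8%. Over all protein-coding genes the share was 35.8%, 30.3% and 28.6% in the same order, so it moved the same way by a smaller amount.

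The lists within each replicate showed the same direction. C57BL6/J replicate 7 had 75 ribosomal protein promoters in media, 48 after LPSx1 and 36 after LPSx2. BTBR replicate 8 had 67 in media, 49 after LPSx1 and 36 after LPSx2. C57BL6/J replicate 4 had 74 in media, 44 after LPSx1 and 44 after LPSx2. The smallest difference was in BTBR replicate 2, with 36 in media, 36 after LPSx1 and 25 after LPSx2. The count was lower after LPSx2 than in media in 7 of 7 replicates, by 11 to 39 genes with a median of 26. It was lower after LPSx1 than in media in 6 of 7 and equal in 1, and lower after LPSx2 than after LPSx1 in 6 of 7 and equal in 1. Both LPS schedules are compared with the same media libraries.

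In the full-length lists the count was again lower after LPSx2 than in media in 7 of 7 replicates, by 1 to 41 genes with a median of 13, although the LPSx2 list was the longer one in 5 of them. The same share over all genes was lower in 4 of 7. After LPSx1 the full-length count was lower than in media in 6 of 7 replicates. Promoter peaks of every kind made up less of the lists after LPS: peaks centred within 1 kb of a start were 53.3 ± 10.7% of the peaks in media (n = 7), 43.8 ± 7.17% after LPSx1 (n = 8) and 41.2 ± 5.54% after LPSx2 (n = 7). That share was lower after LPSx2 than in media in 7 of 7 replicates, and its part in the ribosomal protein result was not tested.

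**Figure D2:**
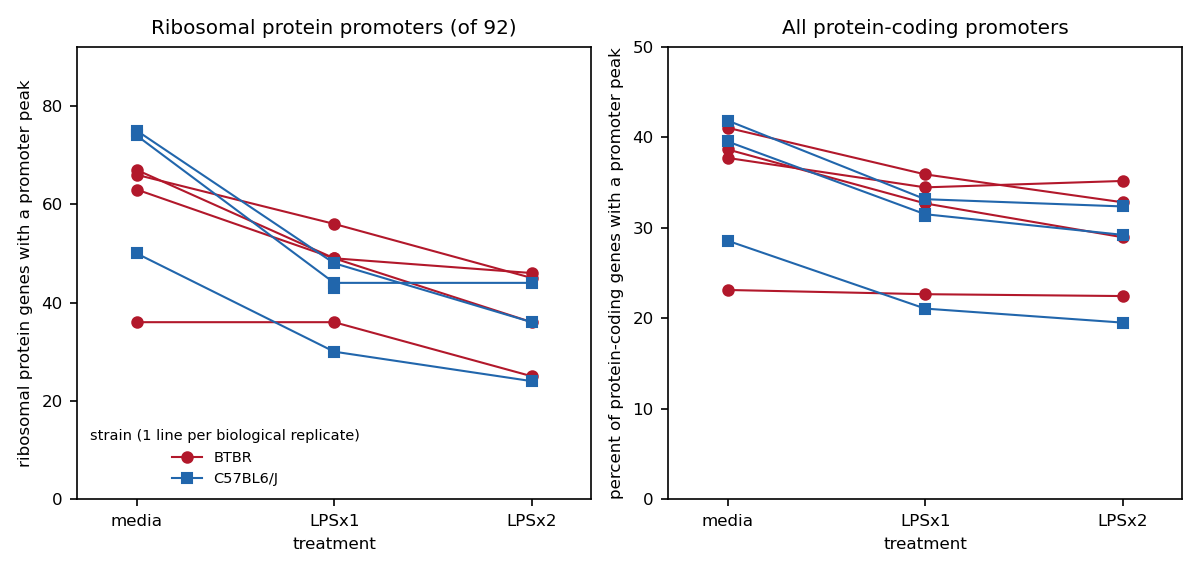
Left, number of the 92 ribosomal protein genes with a promoter peak in each equal-length list (y axis) by treatment (x axis), and right, the percent of all protein-coding genes with one, with 1 point per library, lines joining the libraries of a biological replicate and colour giving the strain. Media lists hold 36 to 75 such genes, LPSx1 lists 30 to 56 and LPSx2 lists 24 to 46.

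Measured gene by gene, 71 of the 92 members had a lower mean percentile after LPSx2 than in media, 9 a higher one and 12 were at 0 in both. Those 71 are 88.8% of the members that were not at 0, against 73.1% of all genes. After LPSx1, 65 were lower and 15 higher than in media (81.3% lower, against 68.5% of all genes). A linear model (limma, with strain-by-treatment groups and lane) was fitted to the 7158 genes with a promoter peak in at least 50% of the lists or a mean percentile of at least 25, which included 47 members. That filter reads the same libraries, so the counts below are of the tested members and not of the group.

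After LPSx2, 18 of the 47 tested members (38.3%) fell and 0 rose at a Benjamini-Hochberg adjusted p under 0.05. Over all 7158 genes the background was 17.9% lower and 2.89% higher. The median difference was -18.6 percentile points over the tested members and -8.45 over all genes tested. By subunit, 8 of 23 large-subunit genes fell, 9 of 21 small-subunit genes and 1 of 3 paralogs, with medians of -9.04 for the large and -23.4 for the small subunit. The other 29 tested members did not pass, and 24 of the 47 had an unadjusted p under 0.05. The share of all tested genes at that unadjusted threshold is not given, so such counts, here and below, have no background.

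These calls rest on comparing lists of equal length within lanes. With the lists as deposited or with the full-length collapsed lists 0 members passed, with no lane term 1 passed, with the 2 short lists kept 1 passed, and without the 7 lists with overlapping peaks 1 passed. Leaving out BTBR replicate 5 gave 8 calls, C57BL6/J replicate 7 or BTBR replicate 8 gave 10 each, and C57BL6/J replicate 4 gave 11.

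At Rps3, Rpl41, Rps2, Rpl10 and Rps27 the fall after LPSx2 relative to media passed with any 1 of the 8 replicates left out. Rps3, a small-subunit protein at the mRNA entry channel that also has DNA repair functions, had percentiles with a lowest, median and highest of 0, 47.5 and 87.4 in media, 0, 39.8 and 50.6 after LPSx1, and 0, 0 and 32.7 after LPSx2. Its promoter peak was in 6 of 7 media lists, 7 of 8 LPSx1 lists and 1 of 7 LPSx2 lists, and the ranges overlapped. The difference between LPSx2 and media was -47.0 ± 9.30 percentile points (SE, limma adjusted p = 0.00156), and it was lower in 6 of 7 replicates. It passed under 15 of 18 alternatives, with an adjusted p between 0.000436 and 0.313.

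Rpl41 encodes the smallest protein of the large subunit. Its percentiles had a lowest, median and highest of 47.7, 60.7 and 76.4 in media, 6.60, 46.7 and 56.4 after LPSx1, and 0, 1.55 and 63.5 after LPSx2. Every media list had the peak well up the list, and only the highest LPSx2 value reached that range. The difference between LPSx2 and media was -43.8 ± 9.78 (SE, limma adjusted p = 0.00347).

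Rps2, a small-subunit protein whose gene starts beside Rnf151, had percentiles of 0, 45.4 and 82.4 in media, 0, 26.2 and 53.0 after LPSx1, and 0, 0 and 49.5 after LPSx2 (lowest, median, highest). The peak was present in 6 of 7 media lists, 6 of 8 LPSx1 lists and 1 of 7 LPSx2 lists. It fell by 40.6 ± 9.38 points after LPSx2 relative to media (SE, limma adjusted p = 0.00411). In its peak region, chr17:24719823-24720206, the full-length lists had a peak in 4 of 7 LPSx2 libraries and 7 of 7 media libraries, so some LPSx2 libraries still had a called peak there.

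Rpl10, on the X chromosome, encodes a late-joining large-subunit protein beside the peptidyl transferase centre, and its percentiles were 0, 60.4 and 87.3 in media, 0, 14.5 and 66.4 after LPSx1, and 0, 0 and 57.8 after LPSx2. The difference between LPSx2 and media was -39.5 ± 9.80 (SE, limma adjusted p = 0.00680). Unlike Rps3 and Rpl41, Rpl10 already passed after LPSx1, a call that held in 3 of 8 fits with 1 replicate left out.

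Rps27 shares its start region with Rab13. Only in the equal-length media lists of C57BL6/J replicates 1 and 4 was Rps27 the nearest start of a peak. The promoter percentile of Rps27 had a median of 53.2 in media, 24.7 after LPSx1 and 0 after LPSx2. It fell by 40.0 ± 10.6 points after LPSx2 relative to media (SE, limma adjusted p = 0.0101), and was lower in 7 of 7 replicates, although the ranges of LPSx2 and media overlapped. Rpl22 and Rpl28 were also lower in 7 of 7 replicates, with differences of -24.5 ± 8.29 and -31.5 ± 10.1 (SE, limma adjusted p = 0.0356 and 0.0272). Their calls held under 8 of 19 and 10 of 18 alternatives, and with 1 replicate left out in 3 of 8 and 5 of 8 fits. Without C57BL6/J replicate 1 the difference at Rpl22 was -16.1 (limma adjusted p = 0.154).

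Other calls after LPSx2 were Rps12, Rps27l, Rps27a, Rpl13a, Rpl27a, Rplp2, Rps20, Rplp1 and Rps26, with differences from -40.3 to -23.9 and limma adjusted p-values from 0.0109 to 0.0437. These 9 calls held under 5 to 13 of 17 to 19 alternatives each. With the replicate as a block, Rps26 did not pass (adjusted p = 0.0512). Rplp1 and Rplp2 are stalk proteins that recruit translation factors, Rps27a encodes a fusion of ubiquitin with a small-subunit protein, and Rps27l is a p53-responsive paralog of Rps27. At some of these the promoter stayed among the stronger peaks: Rpl27a had a lowest, median and highest percentile of 20.0, 70.2 and 88.2 after LPSx2, against 78.0, 84.8 and 92.01 in media. Rpl13a, a large-subunit protein that also represses translation of inflammatory mRNAs after interferon-gamma, had 0, 72.7 and 95.4 after LPSx2, against 69.4, 92.5 and 98.6 in media, and was lower in only 4 of 7 replicates. Without C57BL6/J replicate 7 the difference at Rpl13a was -12.0 (limma adjusted p = 0.231), and without C57BL6/J replicate 1 that at Rpl27a was -15.5 (limma adjusted p = 0.149). With the promoter window narrowed to 250 bp, the difference at Rpl13a turned to +26.0 (limma adjusted p = 0.390).

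All 18 differences between LPSx2 and media were below 0 in both strains, and 14 were below 0 in all 4 lanes. The 18 were called on their mean fall over the same libraries. That selection partly sets these signs, which are not separate evidence. At none of the 18 were the LPSx2 and media values fully separated, and among all 7158 tested genes every LPSx2 list was below every media list at 30 (0.419%). Of the 17 members with another protein-coding start within 1 kb, 7 were tested and 3 fell, with a median difference of -17.9, and of the 75 others, 40 were tested and 15 fell, with a median of -20.1.

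**Figure D3:**
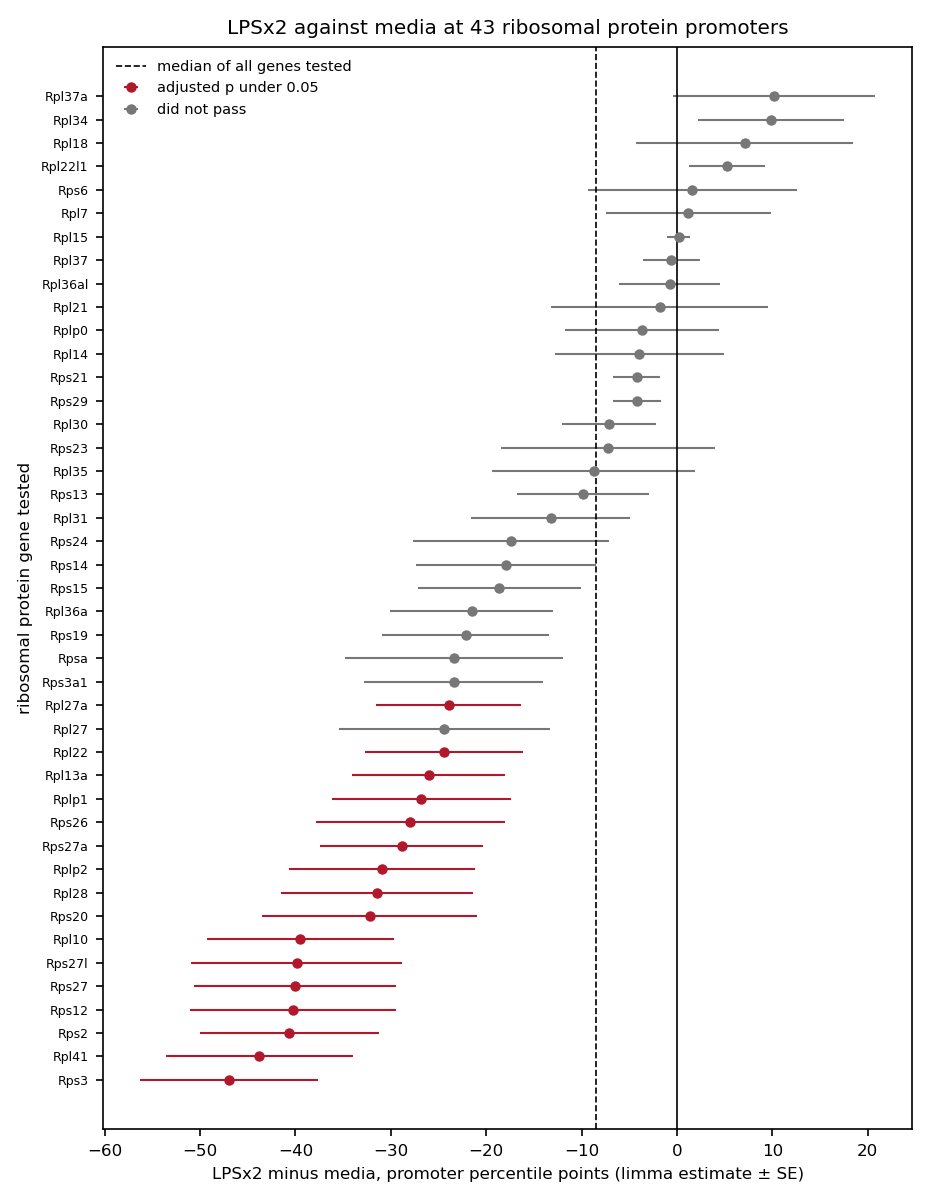
Difference in promoter percentile between LPSx2 and media (x axis, percentile points, with the SE as a bar) for 43 of the 47 ribosomal protein genes tested, ordered by size, in red for the 16 drawn that passed an adjusted p of 0.05 and in grey for the others, with a dashed line at the median of all genes tested (-8.45). The passing differences lie between -47.0 and -23.9, and none passed above 0.

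At Rpl15, Rps21 and Rpl37, the 3 members with the highest mean percentiles, values lay near the upper end of a scale that stops at 100 and had similar medians under each treatment. Rpl15 had a lowest, median and highest percentile of 95.4, 98.5 and 99.5 in media, 97.7, 98.8 and 99.5 after LPSx1, and 96.9, 98.6 and 98.7 after LPSx2. Rps21 had medians of 97.1, 95.6 and 95.5 in the same order and Rpl37 92.6, 91.7 and 91.1. Neither treatment difference passed at these 3 genes. The largest positive differences after LPSx2 relative to media, none of which passed, were +10.2 ± 10.6 at Rpl37a, +9.86 ± 7.65 at Rpl34 and +7.12 ± 11.4 at Rpl18 (SE, limma adjusted p = 0.509, 0.360 and 0.685).

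After LPSx1, 3 of the 47 tested members (6.38%) fell relative to media, against a background of 10.8% of all tested genes, and 1 rose, against 2.5%. Among the 3, Rpl10 fell by 34.5 ± 9.53 and Rps27a by 28.7 ± 8.31 points (SE, limma adjusted p = 0.0188 and 0.0234). The median difference was -8.94 over the tested members and -6.34 over all tested genes, and 13 members had an unadjusted p under 0.05. Whether the LPSx1 and LPSx2 counts differ was not tested beyond the comparison of the schedules gene by gene. The LPSx1 difference at Rps27a was +0.358 in BTBR and -58.3 in C57BL6/J, and that difference between the strains did not pass its own test.

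The gene that rose after LPSx1 was Rpl22l1, the Rpl22 paralog with the TATA box shown above. Its percentiles had a lowest, median and highest of 56.0, 85.8 and 91.6 in media, 77.4, 96.1 and 98.5 after LPSx1, and 66.2, 92.5 and 98.5 after LPSx2. LPSx1 lists were mostly higher than media lists, with overlap at the lower values. The difference between LPSx1 and media was +11.6 ± 3.88 (SE, limma adjusted p = 0.0442), higher in 6 of 7 replicates and in all 4 lanes, and it did not pass with the replicate as a block (adjusted p = 0.0574) or in 6 of 8 fits with 1 replicate left out. Larger but more variable differences at Rpl37a, +27.3 ± 10.3, and Rpl34, +16.1 ± 7.44, did not pass (limma adjusted p = 0.0732 and 0.142). The LPSx1 count also varied with the replicates used: 8 passed without BTBR replicate 2, 1 without BTBR replicate 3, C57BL6/J replicate 7 or BTBR replicate 8, and 0 without BTBR replicate 5.

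Between the 2 LPS schedules no member passed by limma in either direction, and neither did any other gene (background 0% both ways). An unadjusted p under 0.05, a threshold for which no background is given, was seen at 10 members. The largest difference between LPSx2 and LPSx1 was at Rps3, -30.6 ± 9.05 (SE, limma adjusted p = 0.733). A difference between the strains in the response to LPS was likewise not called at any member or other gene for either schedule (background 0%). In each, 5 members had an unadjusted p under 0.05, again with no background at that threshold. The largest for LPSx2 was at Rps3, where the change relative to media was -19.2 in BTBR and -74.7 in C57BL6/J, a difference between strains of +55.5 ± 18.6 (SE, limma adjusted p = 0.364). For LPSx1 the largest were Rps2 at +59.0 ± 18.2, Rps27a at +58.2 and Rps3 at +56.8 (limma adjusted p = 0.314).

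The second measure was the number of peaks per gene, counting every peak whose nearest protein-coding start within 100 kb was that gene. Peaks nearest to ribosomal protein genes took a smaller share of the lists after LPS: of the peaks assigned to any gene, 0.482 ± 0.0778% lay at members in media (SD, n = 7), 0.412 ± 0.0495% after LPSx1 (n = 8) and 0.351 ± 0.0253% after LPSx2 (n = 7), where the members are 0.421% of all genes. The share was lower after LPSx2 than in media in 7 of 7 replicates, with a median difference of -0.0961 percentage points. Peaks within 1 kb of any start also made up less of these lists, 53.3% in media and 41.2% after LPSx2. How much of the fall at the members goes with that was not tested.

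Of the 53 members among the 9153 genes tested for peak number, 5 fell and 1 rose after LPSx2 relative to media, against backgrounds of 3.11% lower and 3.67% higher. The filter for this test, a mean of at least 0.5 peaks per list, reads the same libraries. After LPSx1 2 fell, against 2.41%, and 0 rose, against 3.39%. Rpl3, whose protein lies at the peptidyl transferase centre of the large subunit, had the clearest difference: 2, 3 and 3 peaks (lowest, median, highest) in media lists, 0, 0.5 and 2 after LPSx1, and 0, 0 and 1 after LPSx2. No LPSx2 list reached the lowest media list. How often that occurs over all genes tested for peak number was not counted. The differences from media were -2.33 ± 0.336 peaks for LPSx2 and -1.85 ± 0.327 for LPSx1 (SE, limma adjusted p = 0.00213 and 0.00644), and the LPSx2 difference passed under 15 of 18 alternatives.

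Rpl10a, a large-subunit protein of the L1 stalk, had a peak in 1 of 7 LPSx2 lists and in 6 of 7 media lists. It fell by 1.08 ± 0.215 peaks after LPSx2 and by 0.938 ± 0.209 after LPSx1 relative to media (SE, limma adjusted p = 0.0103 and 0.0210). Rplp2 (-1 ± 0.267), Rps16 (-0.917 ± 0.247) and Rps2 (-0.750 ± 0.206) fell after LPSx2, with limma adjusted p-values of 0.0419, 0.0435 and 0.0469. Rps20 rose by 1.42 ± 0.381 peaks (SE, limma adjusted p = 0.0434) while its promoter percentile fell by 32.2. That peak-number call held under 3 of 18 alternatives, and counting only peaks within 25 kb the difference at Rps20 was -0.167. With the replicate as a block, Rps20 and Rplp2 did not pass for LPSx2 (limma adjusted p = 0.0700 and 0.0694), nor Rpl10a for LPSx1 (limma adjusted p = 0.0595). The LPSx1 count of 2 was 1 without any one of replicates 3, 4, 5, 7 and 8. The LPSx2 count of 6 was 1 without C57BL6/J replicate 4 or 7, 2 without any one of replicates 1, 3, 5 and 8, and 0 with the full-length lists. Between LPSx2 and LPSx1 0 members passed by limma (background 0%). At an unadjusted p under 0.05, for which no background is given, there were 7. For the strain difference in the response 0 members passed, against 0.0219% higher and 0.0109% lower of all genes for LPSx1 and 0.0109% each way for LPSx2.

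The genes with the most peaks were Rps14, with a mean of 2.77 peaks and 1 to 6 per list, Rps20 with 1.82, Rpl14 with 1.64 and Rps19 with 1.5, followed by Rps3a1 and Rps23 with 1.41 each. Rps14 had a mean of 3.00 ± 1.63 peaks in media, 2.88 ± 1.96 after LPSx1 and 2.43 ± 1.27 after LPSx2 (SD), differences within the spread of the lists. Its promoter percentile averaged only 20.8, so most of its peaks lay away from its start. Rps19 and Rps3a1 had mean percentiles of 70.0 and 66.6.

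Joining overlapping peaks across all lists gave 153 regions assigned to the group among 45044 in all: 90 within 1 kb of a start and 63 distal ones at 32 genes. No distal region was present in every equal-length list, 9 were in at least 50% of them and 18 in 1 list only. A region was counted as lost or gained after LPS where it changed in at least 5 of the 7 replicates with both lists and the reverse occurred in none. After LPSx2, 11 of the 153 regions (7.19%) were lost relative to media, against 1.41% of all regions, and 2 (1.31%) were gained, against 2.09%. These backgrounds are not matched for position, since 30932 of the 45044 regions were distal. Among distal regions alone, 2 of the 63 and 891 of the 30932 were gained, and 2 and 298 were lost. After LPSx1, 4 (2.61%) were lost, against 1.16%, and 2 were gained, against 1.86%.

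The regions lost after LPSx2 included those at the starts of Rpl10a, Rpl23a, Rpl3, Rpl5, Rps10, Rps16, Rps2 and Rps3. A distal one, chr15:80074766-80075079, is intergenic, 5526 bp after the Rpl3 start, and was in 6 of 7 media lists, 1 of 8 LPSx1 lists and 0 of 7 LPSx2 lists. In the full-length lists it was present in 2 of 7 LPSx2 libraries and 7 of 7 media libraries. After LPSx2 relative to LPSx1, 3 regions of the group (1.96%) were lost, at Rps19, Rps2 and Rps3, against 0.0222% of all regions, and 0 were gained, against 0.0311%. These 3 lie within 1 kb of a start, and the background is again not matched for position. In the full-length lists they were present in 5, 4 and 4 of 7 LPSx2 libraries and each in 8 of 8 LPSx1 libraries.

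Both gained regions were distal and appeared after either LPS schedule. One lies in an intron of Lyn, a Src-family kinase of myeloid cells, 48717 bp from the start of Rps20 (chr4:3786845-3787127), and was in 0 of 7 media lists, 7 of 8 LPSx1 lists and 6 of 7 LPSx2 lists. In the full-length lists the counts were the same, 0, 7 and 6. It was assigned to Rps20 only because that is the nearest protein-coding start. The other, chr7:118117555-118118238, lies 1604 bp before Rps15a in intergenic sequence and was in 0 of 7 media lists, 5 of 8 LPSx1 lists and 5 of 7 LPSx2 lists, with 2, 6 and 6 in the full-length lists.

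The strongest peak of each of these gained regions is printed here on the plus strand of mm10, since they are the distal sites of the group that appeared with LPS. Capitals mark TGANTCA (AP-1) in the first and GAGGAAG (PU.1) in the second, searched on both strands. TTGCNNAA (C/EBP) and the NF-kB consensus were searched too, and neither occurs in the 2 peaks. No motif contains another.
Peak nearest to Rps20, in Lyn, chr4:3786848-3787048: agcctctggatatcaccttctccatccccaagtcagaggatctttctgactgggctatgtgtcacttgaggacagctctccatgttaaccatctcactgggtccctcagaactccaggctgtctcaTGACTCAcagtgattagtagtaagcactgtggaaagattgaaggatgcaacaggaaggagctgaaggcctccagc
Peak before Rps15a, chr7:118117692-118117892: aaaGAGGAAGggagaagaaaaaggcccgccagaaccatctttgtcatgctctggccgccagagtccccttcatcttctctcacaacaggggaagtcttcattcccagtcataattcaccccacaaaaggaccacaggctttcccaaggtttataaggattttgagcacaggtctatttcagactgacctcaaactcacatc
Over the 63 distal regions of the group, the AP-1 letters occurred in 18 (28.6%) and the PU.1 letters in 18 (28.6%), against 25.8% and 24.8% of 30932 distal regions in all. The C/EBP letters occurred in 8 (12.7%), against 15.6%, and the NF-kB consensus in 0, against 4.11%. Over all genes, the AP-1 letters occurred in 48.8% of the 891 distal regions gained after LPSx2 and in 20.1% of the 298 lost ones.

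**Figure D4:**
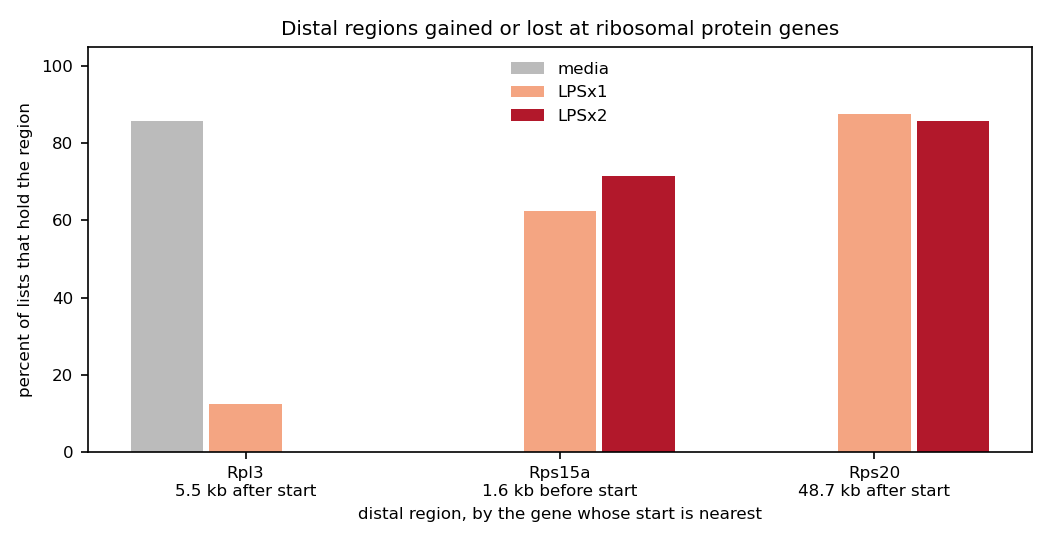
Share of equal-length lists of each treatment (y axis, percent of lists) that hold each of the distal regions nearest to Rpl3, Rps20 and Rps15a described in the text (x axis). The Rps20 and Rps15a regions are in most LPS lists and no media list, and the Rpl3 region is in 0 of 7 LPSx2 lists and in 6 of 7 media lists.

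The second comparison asked whether the strains differed. By promoter percentile, 1 of the 47 tested members, Rpl14, was lower in BTBR than in C57BL6/J, against a background of 1.2%, and 0 were higher, against 0.657%. The median difference was -0.717 over the tested members and +0.733 over all tested genes, and 8 members had an unadjusted p under 0.05. Without a filter, 37 members had a lower and 43 a higher mean percentile in BTBR. Of those not at 0, 46.25% of the members were lower, against 37.7% of all genes.

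Rpl14 encodes a large-subunit protein, and its gene lies on chromosome 9. Its percentiles in BTBR replicates 2, 3, 5 and 8 were 0, 29.4, 3.73 and 0 in media, 0, 0, 0 and 6.52 after LPSx1, and 0, 0, 0 and 0 after LPSx2. In C57BL6/J replicates 1, 4 and 7 they were 60.4, 81.5 and 51.7 in media, 45.5, 64.5 and 78.7 after LPSx1, and 63.2, 63.4 and 68.1 after LPSx2, and C57BL6/J replicate 6 had 88.5 after LPSx1. The highest BTBR value was below the lowest C57BL6/J value, and among all 7158 tested genes 6 (0.0838%) were lower in every BTBR list than in any C57BL6/J list. The mean was 3.30 ± 8.46 in BTBR and 66.5 ± 13.3 in C57BL6/J (SD, n = 12 and 10 lists from 4 replicates each).

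The difference was -63.5 ± 7.06 points (SE, limma with the replicate as a random effect, adjusted p = 5.43e-07), and it was below 0 in all 4 lanes, from -88.5 to -56.4. With an estimated correlation of -0.0218, that fit took the lists of a replicate almost as independent. Its p-value is therefore not one over 4 mice per strain. It passed under 14 of the 16 alternatives that gave it a value, and did not pass with the lists as deposited or at full length, where the difference was -50.4 and -49.6. Rpl14 did not meet the filter without the 7 lists with overlapping peaks, nor when only the top 50% of peaks were kept. The count of members called was 3 without C57BL6/J replicate 7 and 2 without BTBR replicate 8. In the full-length lists a promoter peak was called in 8 of 12 BTBR libraries and 10 of 10 C57BL6/J libraries, with median percentiles of 15.1 and 80.7. The Rpl14 promoter thus ranked lower in BTBR, where it was still called in part of the full-length lists.

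The difference at Rpl14 was also in the number of peaks, 0 to 2 per BTBR list and 2 to 4 per C57BL6/J list, a difference of -2.18 ± 0.252 (SE, limma adjusted p = 0.000424, backgrounds 0.743% lower and 0.492% higher). Peaks 5 to 12 kb after its start were in 5 of 12 BTBR lists and 10 of 10 C57BL6/J lists. The intergenic region 5828 bp after the start, chr9:120577155-120577443, was in 10 of 12 BTBR and 10 of 10 C57BL6/J full-length lists. The region 11334 bp after the start, chr9:120582655-120582878, was in 2 of 12 BTBR and 9 of 10 C57BL6/J full-length lists. The printed sequences come from the reference genome, which is that of C57BL6/J, and the BTBR sequence at Rpl14 was not analysed here. Differences between the strains in how reads align to that reference were not tested.

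**Figure D5:**
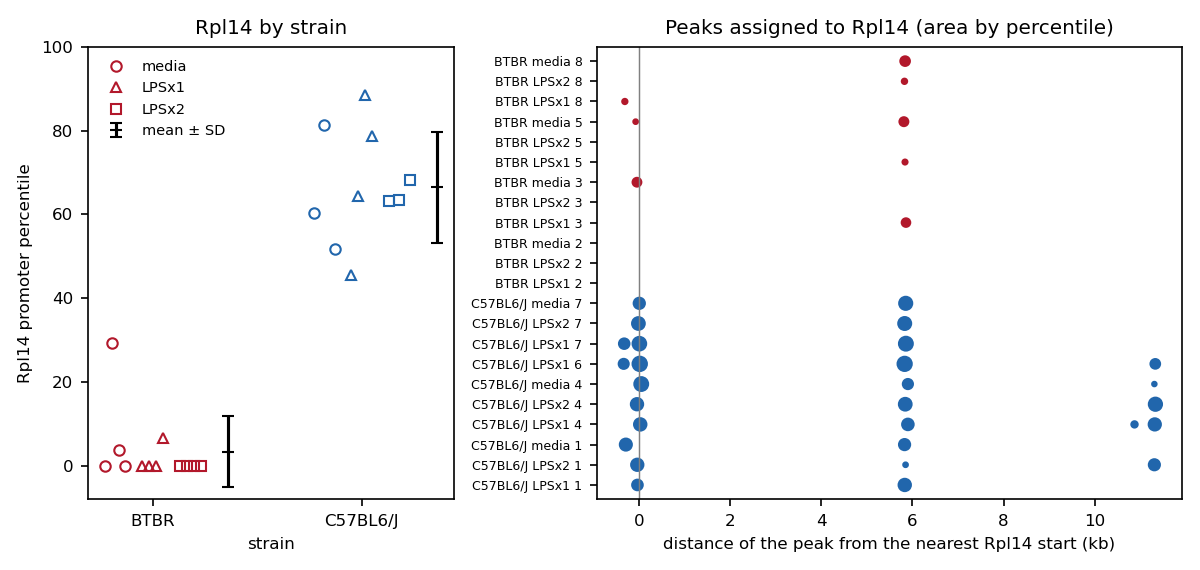
Left, promoter percentile of Rpl14 in each equal-length list (y axis, 100 the strongest peak and 0 no promoter peak), with BTBR left of C57BL6/J, 1 point per library, symbols for treatments and bars for the mean and SD; right, distance in kb of each peak assigned to Rpl14 from its start (x axis) in each library, with the dot's area growing with its percentile. On the left, BTBR points lie between 0 and 29.4 and C57BL6/J points between 45.5 and 88.5.

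Apart from Rpl14, no strain difference in promoter percentile passed at a tested member, and the largest in each direction were these. Rpsa, the small-subunit protein that also serves as a laminin receptor, averaged 17.7 ± 18.3 in BTBR and 46.4 ± 29.5 in C57BL6/J (SD), a difference of -31.0 ± 9.15 (SE, limma adjusted p = 0.0827). Rpl28 averaged 47.3 ± 24.6 in BTBR and 21.1 ± 23.1 in C57BL6/J, a difference of +26.3 ± 8.01 (limma adjusted p = 0.0925). The next lower in BTBR was Rpl7 (-19.4 ± 6.92), and the next higher were Rpl34 (+16.0 ± 6.18) and Rps27 (+15.2 ± 8.43), with limma adjusted p-values of 0.174, 0.214 and 0.435.

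Other genes of the translation machinery were counted for comparison with the same fit. Of 26 other ribosome and TOP-mRNA genes, 19 were tested, and 6 fell (31.6%) and 1 rose (5.26%) after LPSx2 relative to media, against 17.9% and 2.89% of all tested genes, with a median difference of -14.8. Eif4b, an initiation factor that stimulates unwinding of mRNA, averaged 17.0 ± 17.6 after LPSx2 and 63.4 ± 35.3 in media (SD), and Naca, of the nascent chain-associated complex, 20.1 ± 32.6 after LPSx2 and 63.9 ± 28.7 in media. Nap1l1, a histone chaperone named here after its values were seen, was the one that rose, by 15.2 points after LPSx2 and 16.0 after LPSx1.

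Of 45 ribosome biogenesis factors, 28 were tested, and 8 fell (28.6%) and 0 rose after LPSx2 relative to media, against the same 17.9% and 2.89%, with a median of -10.7. Nip7, which acts in pre-rRNA processing, averaged 11.4 ± 17.0 after LPSx2 and 69.9 ± 12.5 in media (SD), a difference of -60.8 ± 9.44 (SE, limma adjusted p = 0.000239). Nhp2 and Nop56, core proteins of small nucleolar ribonucleoproteins, fell by 44.3 and 43.9. Ltv1, an assembly factor of the small subunit, was lower in BTBR than in C57BL6/J by -42.5 ± 8.45 (SE, limma adjusted p = 0.00306). Of 78 mitochondrial ribosomal protein genes, 41 were tested, and 5 fell (12.2%) and 1 rose (2.44%) after LPSx2 relative to media, again against 17.9% and 2.89%, with a median of -6.50. Mrpl24 and Mrps23 fell, by -46.8 and -42.7 points, and Mrps22 rose by 27.8. The medians of these lists stood at both sides of the -8.45 over all tested genes, and whether the lists differ from the cytosolic ribosomal proteins was not tested.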

How the data were processed

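ATAC-seq peak lists of 24 libraries were analysed as deposited. The submitters' processing notes name mm10 as the build, nucleosome-free fragments (under 147 bp) as the input, and Trimmomatic 0.38, SAMtools 1.8, Picard 2.18.4, bedtools and, for the peaks of each library, HOMER as tools. The aligner is not given in the sources used here. A false discovery rate of 0.01 and the exclusion of blacklisted regions are given in the names of the lists. The peak score in each deposited list has no stated scale. Its values are multiples of 0.5, and here it orders the peaks of a list and nothing else. Read depth is unknown, so the number of peaks alone limits precision, and no interval from counts is given.

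Within each list, peaks overlapping by at least 1 bp were collapsed to the higher-scoring one. Lists under 5000 peaks were left out, and the lists of a lane were limited to the length of the shortest. Peaks were assigned to the nearest start of a GENCODE vM21 protein-coding gene within 100 kb. Promoter percentile (genes with a promoter peak in at least 50% of the lists, or a mean of at least 25) and peak number (genes with a mean of at least 0.5) were fitted with limma 3.58.1 in R 4.3.3, with trend and robust settings, over 6 strain-by-treatment groups with lane as a covariate. The strain contrast had the biological replicate as a random effect (estimated correlation -0.0218 for the percentile and -0.00293 for peak number). P-values were adjusted by Benjamini-Hochberg over all genes tested. The treatment fits had no term for the replicate, so their p-values measure the spread between libraries of a group beyond lane. In the strain contrast the estimated correlation was so small that libraries of a replicate counted almost as independent. The labels imply separate cultures of the replicates but do not describe them.

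Replicate numbers pair the treatments, since they name biological replicates in the labels. Deviations from the group means correlated between libraries of the same replicate with a median of 0.374 (lowest 0.0126, highest 0.632, over 0.1 in 19 of 21 pairs), against a median of -0.229 between other libraries of a strain. Within a strain each replicate is also a lane with its own list length, so these correlations cannot separate replicate from lane. Centring on means of small groups also lowers the correlation between other libraries. A fit with the replicate as a block in place of lane was run as an alternative. The fits were tested on simulated data with 200 changed genes and libraries drawn independently. By percentile, with changes of 40 points, 42.5% were recovered for LPSx1 relative to media and 67.5% for the strain contrast. False calls were 3.41% and 11.2% of the calls. By peak number, with changes of 3 peaks, 30.5% and 70.5% were recovered, and 6.15% and 8.44% of the calls were false.

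Members and gene lists were chosen with earlier results of these data known. Genes were named by a rule: members called in any contrast, the 3 largest differences in each direction, the 5 highest percentiles and peak numbers, every member with a promoter peak in under 50% of the lists, and up to 4 called genes of each other list. The alternatives were lists as deposited, collapsing at 50% overlap, short lists kept, full-length lists, the stronger 50% of each list, no lane term, the replicate block, no filter, a 25 kb distance, a 250 bp promoter window, log2 rank, each replicate left out, and, added after the data were seen, the 7 lists with overlapping peaks left out and motif windows under peaks. Sequences are from RefSeq GRCm38.p6, or from that genome at the peak positions. Results for 5 members taken singly and for 1 distal region are not reported here, though they stay in the counts over the group.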

Additional observations from a re-analysis of the deposited data

Results flagged for a closer look

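In groups of 4 libraries, a library was singled out where its gap to the nearest other exceeded Dixon's critical value. Of 84 such groups over the called members reported here, the promoter counts and the peak shares, 16 held such a library. Chance singles out about 1 in 20 groups, and in 8 of the 16 the other 3 libraries were all at 0, where any value stands apart.

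BTBR LPSx2 replicate 3, 1 of the lists with overlapping peaks, recurred at 5 genes: its promoter percentile was 51.8 at Rpl10, where the others had 0 to 5.77, 59.2 at Rplp2 (others 0 to 7.00), 40.0 at Rps26, 49.1 at Rps27 and 32.7 at Rps3 (others 0 at these 3). BTBR LPSx2 replicate 5 stood above its group at Rps2 with 49.5 and at Rps27a with 2.87, and the others were at 0.

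C57BL6/J LPSx1 replicate 4 stood above its group at Rpl10 with 66.4 (others 0 to 6.60) and at Rps27 with 49.5. C57BL6/J LPSx1 replicate 6 had 7.07 at Rps27a, and C57BL6/J LPSx1 replicate 1 had 41.8 at Rpl27a, below the 90.3 to 93.9 of the others. C57BL6/J LPSx1 replicate 7 had 0.474% of its gene-assigned peaks at ribosomal protein genes, above the 0.382% to 0.389% of the others.

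BTBR media replicate 2 had 36 ribosomal protein promoters, below the 63 to 67 of the other BTBR media lists, and a percentile of 27.2 at Rps27l, below their 76.4 to 84.4. At Rpl14, BTBR LPSx1 replicate 8 had 6.52 where the others had 0, and BTBR media replicate 3 had 29.4 where the others had 0 to 3.73, both below every C57BL6/J list.

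The left-out LPSx2 list of C57BL6/J replicate 6 still held promoter peaks at 9 ribosomal protein genes, and the left-out media list of that replicate at 0.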

How the results depend on the processing

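By promoter percentile, the 18 members called after LPSx2 relative to media became 0 with lists as deposited, 0 with full-length lists, 1 with short lists kept, 1 with no lane term, 1 without the 7 lists with overlapping peaks, 4 with the stronger 50% of each list and 29 with no filter, and 8 to 22 with 1 replicate left out. The count stayed at 18 with the replicate block and log2 rank, and was 13 with a 250 bp window. The 4 called after LPSx1 became 0 with short lists kept, with no lane term or without lists with overlapping peaks, 1 as deposited, at full length or with the stronger 50%, 2 with the 250 bp window, 9 by log2 rank, 18 with no filter and 0 to 8 with 1 replicate left out. The 1 called between strains became 0 as deposited, at full length or with the stronger 50%, 2 by log2 rank or without lists with overlapping peaks, and 1 to 3 with 1 replicate left out. By peak number, the 6 called after LPSx2 became 0 as deposited or at full length, 1 with short lists kept, the stronger 50% or without lists with overlapping peaks, 2 with no lane term, 12 with no filter and 1 to 6 with 1 replicate left out. The 2 after LPSx1 became 0 as deposited, at full length or without lists with overlapping peaks, 1 with short lists, the stronger 50%, no lane term or the replicate block, 7 with no filter and 1 to 2 with 1 replicate left out. The strain count of 1 became 0 as deposited, with short lists or at full length. Without lists with overlapping peaks, 1 member was called between LPSx2 and LPSx1 and 1 for the strain difference in the LPSx2 response. With the replicate block, the calls of Rpl22l1 and Rps26 by percentile and of Rpl10a (LPSx1), Rplp2 and Rps20 (LPSx2) by peak number were lost, and no other named call was.

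Within replicates, the median difference in ribosomal protein promoters at full length was -13 after LPSx2 and -6 after LPSx1, against -26 and -18 at equal length. With 1 replicate left out it ran from -28 to -23.5 and from -19 to -16. For LPSx2 relative to LPSx1 it ran from -11 to -8.5. The median difference in peak share ran from -0.135 to -0.0906 after LPSx2, from -0.0687 to -0.0569 after LPSx1, and from -0.0756 to -0.0535 between them. Direction turned at Rps20 peak number within 25 kb (-0.167) and at Rpl13a with the 250 bp window (+26.0). The causes were not tested. Of the single-gene values, 306 kept their side of the threshold, 238 lost it and 2 turned. Without read counts, peaks under each list's cutoff cannot be seen.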

Other observations

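Of the 10 macrophage marker genes, 9 were tested by promoter percentile, and 1 fell (11.1%) and 0 rose after LPSx2 relative to media, against 17.9% and 2.89% of all tested genes. Their median difference was -0.43 percentile points, beside -18.6 over the tested ribosomal protein genes and -8.45 over all tested genes.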
